A study of Homo sapiens with 2 samples.

Results

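Messenger RNA levels of 6 DNA mismatch repair genes, MSH6, MSH3, PMS2, PMS1, MLH3 and EXO1, were compared in RKO cells with and without depletion of hnRNPK, a nuclear protein that binds C-rich RNA and DNA. The genes were chosen by symbol for their role in this pathway, with earlier results of these data known. All 6 were found among the 40205 gene symbols of the table. RKO is an established human colorectal cancer line known to be deficient in mismatch repair. Cells were collected on day 2 after they had been transfected with control siRNA (siNC) or an siRNA against hnRNPK, and each group has 1 library. The genotype label words the second group as a knockout (hnRNPK-/-), whereas its title and protocol describe siRNA. With 1 library per group, the differences below have no replicate check, and no test between conditions was possible.

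Mismatch repair removes bases that DNA polymerase has misplaced and the small loops that form when a repeat slips during copying. MutS complexes recognise the error, MutL complexes are recruited to it and cut the new strand, the exonuclease EXO1 removes the faulty stretch, and polymerase delta and a DNA ligase restore it. Cells that lack the pathway gain and lose units in short repeats, a state called microsatellite instability that is found in a share of colorectal cancers.

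Short repeats also occur inside the mismatch repair genes themselves, so their reference coding sequences are shown first. The coding sequences of MLH3, MSH3, MSH6 and PMS2 each held at least 1 run of 8 or more equal bases, as did 5.93% of 19489 protein-coding genes in the GENCODE annotation, which vary in length. No such run was found in PMS1 or EXO1. The runs are given below in capitals with 10 bases on each side. They are sequences of the reference transcripts, and the deposited values carry no information on the sequence in RKO cells.
MSH3, bases 1141 to 1148 of the coding sequence: tgttagggacAAAAAAAAgggcaacatt
MSH6, bases 3254 to 3261 of the coding sequence: ccggaagataCCCCCCCCttcttagagc
PMS2, bases 1232 to 1239 of the coding sequence: actggagaagAAAAAAAAgacgtgtcca
MLH3, bases 1747 to 1755 of the coding sequence: agagaaagagAAAAAAAAAgaatctagca
MLH3, bases 2014 to 2021 of the coding sequence: attgcccaacAAAAAAAAttgcagaacg
MSH6 has a run of C, and the other genes have runs of A.

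The library totals that fit the FPKM values (fragments scaled to gene length and library size) were 25729856 reads in the control and 28550823 reads after hnRNPK siRNA. HNRNPK, the siRNA target, was at 338 FPKM in control cells and 61.5 FPKM after hnRNPK siRNA, so the labels and the values point the same way. Of 11 epithelial markers 4 had a mean of at least 1 FPKM (EPCAM, KRT8, KRT18 and CDX2), and 6, among them CDH1, KRT20 and VIL1, were listed at 0 in both libraries. Of 12 stromal and endothelial markers and 11 blood cell markers, 0 reached that level.

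The 6 genes spanned a wide range of levels and kept the same order in both libraries. In control siRNA the highest was 43.9 times the lowest by FPKM, a scale that accounts for gene length, and in hnRNPK siRNA it was 34.2 times. MSH6 was the highest, followed by EXO1, PMS1, PMS2, MLH3 and MSH3. Each neighbour in this order differed from the next by more than counting error in both libraries, though PMS1 and PMS2 were close, with a ratio of levels of 1.10 (95% interval 1.004 to 1.22, from counting error only, as for all intervals here) in control cells and 1.17 (1.05 to 1.31) in hnRNPK siRNA. Summed over the 6 genes, the level was 108 FPKM in control cells and 90.2 FPKM after hnRNPK siRNA.

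**Figure D1:**
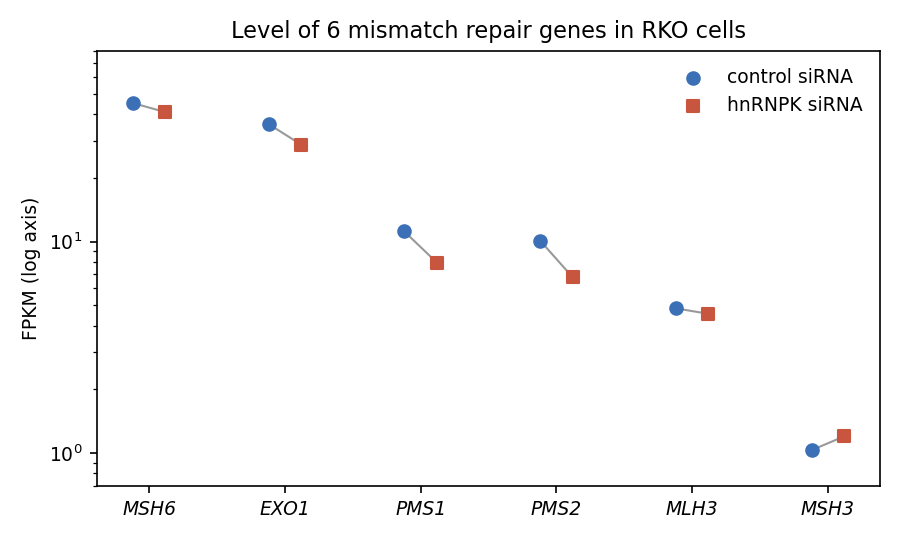
FPKM (log axis) of the 6 mismatch repair genes, ordered by level, with 1 circle for the control siRNA library and 1 square for the hnRNPK siRNA library per gene. MSH6 lies at 45.3 and 41.0 FPKM and MSH3 at 1.03 and 1.20 FPKM, and only MSH3 is higher in the hnRNPK siRNA library at the deposited scaling.

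Of the MutS subunits, MSH6 is the one that, with its MutS partner, recognises single mispaired bases and short loops. It was at 45.3 FPKM in control cells and 41.0 FPKM after hnRNPK siRNA, above 87.0% and 86.5% of the 11454 genes with a mean of at least 1 FPKM. The ratio of FPKM was 0.905 with a counting interval of 0.810 to 1.01 from the smallest reads that fit. These reads go with a length of 541 bases, short of the coding sequence of 4080 bases. At the first multiple that reaches it, 4328 bases with 5040 and 5064 reads, the interval was 0.871 to 0.942. FBXO11, a subunit of a ubiquitin ligase, overlaps MSH6 on the other strand and was at 52.4 and 42.9 FPKM. Whether reads were counted by strand is not given in the sources used here, so reads of these overlapping genes may not have been told apart.

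MSH3, which with the same kind of partner recognises larger loops, was the lowest member. It was at 1.03 FPKM in control cells and 1.20 FPKM after hnRNPK siRNA, from 118 and 152 reads, with a ratio of 1.16 (0.907 to 1.49). The interval includes 1, so a difference was not detectable at this depth and the deposited scaling. It lies just above the ratio of the median gene, 0.904 on the FPKM + 1 scale. Intervals were not computed for other scalings. Of the genes that passed the filter on low values, 1.48% in control siRNA and 5.24% in hnRNPK siRNA lay below it. These shares depend on the filter, a mean of at least 1 FPKM, because the mean of MSH3 was 1.11 FPKM.

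The MutL subunits PMS2 and PMS1 had the lowest ratios of the 6 genes. PMS2, whose complex cuts the new DNA strand, was at 10.1 FPKM in control cells and 6.78 FPKM after hnRNPK siRNA, from 738 and 549 reads, with a ratio of 0.670 (0.599 to 0.750). PMS1, a MutL subunit whose part in human mismatch repair is less clear, was at 11.2 FPKM and 7.95 FPKM, from 1047 and 827 reads, with a ratio of 0.712 (0.649 to 0.781). Both were thus lower by more than counting error, and their intervals overlap. MLH3, the third of these subunits and known from mice for its role in meiotic crossing over, was at 4.83 FPKM and 4.55 FPKM, from 986 and 1031 reads, with a ratio of 0.942 (0.863 to 1.03). Its interval includes 1 and lies above those of PMS2 and PMS1.

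EXO1, the exonuclease that removes the faulty strand, was at 36.0 FPKM in control cells and 28.8 FPKM after hnRNPK siRNA. The ratio was 0.799, with an interval of 0.743 to 0.859 from the smallest reads and of 0.759 to 0.841 at 3462 bases, the first multiple that reaches its coding length. It lay between the ratios of PMS1 and MSH6. Of the 15 pairs among the 6 genes, 8 had counting intervals of the ratio that did not overlap when taken from the smallest reads and 10 at the multiples, which add EXO1 against MSH6 and against PMS2. Each of these pairs set PMS2, PMS1 or EXO1 below a gene with a higher ratio. The share of such pairs among all genes was not computed, so the counts cannot be called particular to these 6 genes. From the smallest reads, the interval of the ratio lay below 1 for 48.5% and above 1 for 20.4% of 11350 genes.

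None of the 6 genes, all of which passed the filter, was at least 2-fold higher or lower on the log2(FPKM + 1) scale, against 4.33% of all 11454 genes (0.777% higher and 3.55% lower). Over all genes the 2-fold counts were 89 higher and 407 lower at the deposited scaling and 142 higher and 241 lower after centring on their median. At 1.5-fold it was also 0 of 6, against 18.4%. By the FPKM ratio itself 0 of the 6 were past either fold, against 1.56% of all genes higher and 7.17% lower at 2-fold, and 5.35% higher and 20.2% lower at 1.5-fold. PMS2, 1.49-fold lower by that ratio (1.33 to 1.67), lay next to the 1.5-fold limit, which its interval includes. Of the 6 genes 5 were lower in hnRNPK siRNA at the deposited scaling, as were 64.8% of all genes. The counting interval of the ratio lay below 1 for 3 of the 6 from the smallest reads, and for 48.5% of 11350 genes. It lay above 1 for 0 of the 6 and for 20.4% of those genes. At the multiple of reads that reaches its coding length, the interval of MSH6 (0.871 to 0.942) lay below 1 as well. The shares of all genes are from the smallest reads. The median log2 ratio of the 6 was −0.23, beside −0.15 for all genes, and 3 of them lay below that median. On this scale PMS2 was at −0.51, PMS1 at −0.44, EXO1 at −0.31, MSH6 at −0.14, MLH3 at −0.07 and MSH3 at 0.11. After centring on the median of all genes MSH6 was at 0.01 and MLH3 at 0.08, so the direction of both turned with the scaling, whereas PMS2, PMS1 and EXO1 stayed below 0 and MSH3 above it at each of the scalings tried.

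**Figure D2:**
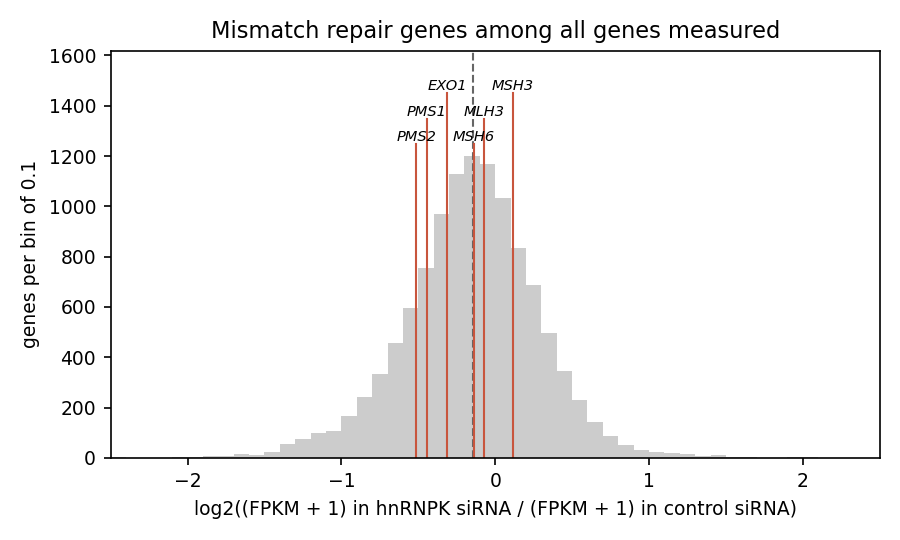
Number of genes (grey bars) by log2 ratio of FPKM + 1 between hnRNPK siRNA and control siRNA, in bins of 0.1 over the genes with a mean of at least 1 FPKM, with red lines at the 6 mismatch repair genes and a dashed line at the median of all genes, −0.15. PMS2 at −0.51 is the farthest from the median and MSH6 at −0.14 lies next to it.

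PMS2 belongs to a family of near-identical copies, so reads can be shared with them and its value is uncertain. The table holds 11 other symbols that begin with PMS2, of which 4 had a mean of at least 1 FPKM. PMS2CL, the copy with the highest level, was at 10.3 FPKM in control cells and 8.34 FPKM after hnRNPK siRNA, with a ratio of 0.811 (0.669 to 0.983). PMS2P1 was at 3.48 and 3.35 FPKM, with a ratio of 0.961 (0.755 to 1.22). PMS2P3 was at 3.004 and 2.73 FPKM, with a ratio of 0.909 (0.697 to 1.19), and PMS2P5 at 1.34 and 1.71 FPKM, with a ratio of 1.27 (0.860 to 1.90). The copies that passed the filter thus had ratios above that of PMS2, with overlapping intervals for PMS2CL and PMS2P3 and not for PMS2P1 and PMS2P5. The other 7 copies were below 1 FPKM in both libraries. Summed over all 11 copies, the level was 20.1 and 17.5 FPKM, and with PMS2 included 30.2 and 24.3 FPKM, with a ratio of 0.804. PMS2 made up 33.5% of that sum in control cells and 27.9% in hnRNPK siRNA. The part of read sharing in the PMS2 value was not tested.

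PMS1 and PMS2 each start next to another protein-coding gene on the opposite strand, within 1 kb in the GENCODE annotation. PMS1 starts 286 bases from ORMDL1, a regulator of sphingolipid synthesis, which was at 18.9 FPKM in control cells and 19.0 FPKM after hnRNPK siRNA, with a ratio of 1.003 (0.922 to 1.09). PMS1 was −0.45 from it in log2 ratio. Among 729 such pairs with both genes past the filter, 41.3% differed by at least as much, and the median difference was 0.37. The transcribed parts of PMS1 and ORMDL1 overlap at their starts, where reads without strand cannot be assigned. PMS2 starts 120 bases from AIMP2, a scaffold protein of the aminoacyl-tRNA synthetase complex, which was at 22.8 FPKM and 27.9 FPKM, with a ratio of 1.22 (1.12 to 1.34). PMS2 was −0.79 from it, and 16.7% of pairs differed by at least as much. In both pairs the intervals of the partners' ratios did not overlap, and the share of the 729 pairs for which this holds was not computed.

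**Figure D3:**
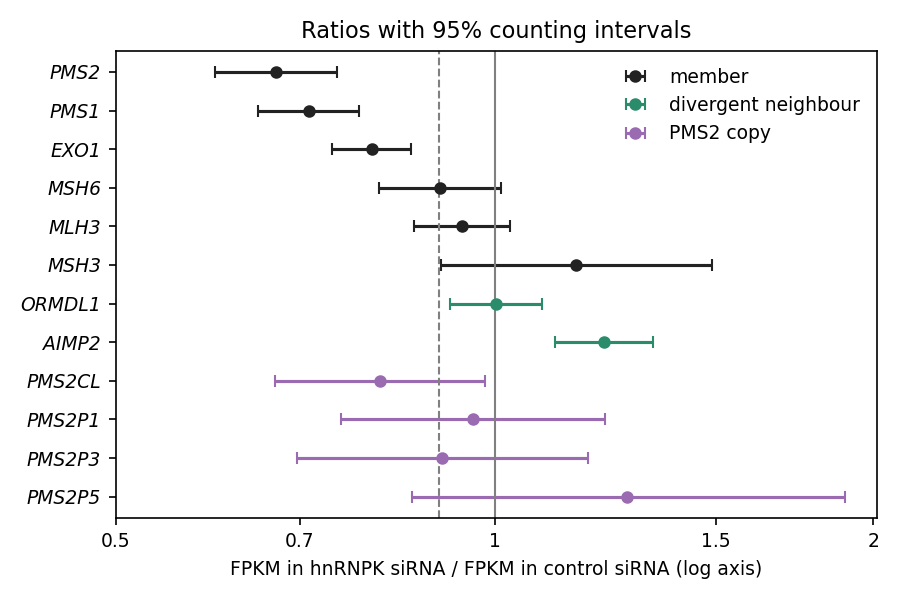
Ratio of FPKM after hnRNPK siRNA to FPKM in control siRNA (log axis) with exact 95% counting intervals for the 6 mismatch repair genes (black), ORMDL1 and AIMP2, which start next to PMS1 and PMS2 (green) and the 4 PMS2 copies with a mean of at least 1 FPKM (purple); the solid line marks no difference and the dashed line the median of all genes. PMS1 at 0.712 lies below its neighbour ORMDL1 at 1.003, and PMS2 at 0.670 below its neighbour AIMP2 and these copies.

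Promoter windows that matched an E2F motif are shown because E2F factors drive many genes of DNA replication. Windows of 300 bases, 250 before and 50 after the most upstream start, were taken from RefSeq (GRCh38.p14) for MSH6, PMS2, PMS1, MLH3 and EXO1. The letters TTTNNCGC were searched on both strands, and matches are in capitals.
MSH6 promoter, GRCh38.p14 chr2:47782895-47783194, plus strand: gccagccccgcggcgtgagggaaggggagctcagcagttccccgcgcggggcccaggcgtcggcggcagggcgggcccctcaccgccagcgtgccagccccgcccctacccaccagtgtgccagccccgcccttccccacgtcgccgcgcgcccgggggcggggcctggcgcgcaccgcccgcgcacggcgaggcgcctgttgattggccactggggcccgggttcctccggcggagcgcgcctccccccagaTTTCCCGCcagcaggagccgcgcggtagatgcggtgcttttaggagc
PMS2 promoter, GRCh38.p14 chr7:6009057-6009356, minus strand: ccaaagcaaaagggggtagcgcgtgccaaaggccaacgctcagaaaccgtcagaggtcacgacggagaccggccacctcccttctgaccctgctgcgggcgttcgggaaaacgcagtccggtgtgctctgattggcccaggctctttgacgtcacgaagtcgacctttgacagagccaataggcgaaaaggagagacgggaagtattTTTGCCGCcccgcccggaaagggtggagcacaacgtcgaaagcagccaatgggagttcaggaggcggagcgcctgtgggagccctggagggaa
EXO1 promoter, GRCh38.p14 chr1:241847954-241848253, plus strand: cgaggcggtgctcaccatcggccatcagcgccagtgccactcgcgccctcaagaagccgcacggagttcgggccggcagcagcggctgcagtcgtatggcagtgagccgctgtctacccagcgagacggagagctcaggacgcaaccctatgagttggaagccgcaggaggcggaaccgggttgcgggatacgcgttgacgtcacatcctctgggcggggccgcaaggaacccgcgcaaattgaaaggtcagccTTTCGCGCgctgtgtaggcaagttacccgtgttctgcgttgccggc
MSH6 held TTTCCCGC at position 3 from the start and EXO1 TTTCGCGC at position 4. PMS2 held TTTGCCGC at position −43. These letters were not in the windows of PMS1 and MLH3, and they were in 6.93% of 27305 promoters. In PMS2 the match overlaps a GC box, GGGCGG on the other strand. GC boxes were in 4 of the 5 windows and in 44.5% of the 27305 promoters.

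The proteins that work downstream of the MutS and MutL complexes are shared with DNA replication. Of 16 genes for the PCNA clamp, its loader, the single-strand binding proteins, polymerase delta, DNA ligase and accessory factors, all passed the filter. On the FPKM + 1 scale 0 were at least 2-fold changed (4.33% of all genes were). On that scale 3 were at least 1.5-fold lower (14.7% of all genes were) and 0 at least 1.5-fold higher (3.67% of all genes were). By the FPKM ratio itself 6 were at least 1.5-fold lower, beside 20.2% of all genes. The lowest ratio was that of RFC1, the large subunit of the clamp loader, at 31.9 FPKM in control cells and 17.4 FPKM after hnRNPK siRNA, with a ratio of 0.546 (0.519 to 0.574). The other members of the list at least 1.5-fold lower on the FPKM + 1 scale, named after their values were seen, were RPA1 and RPA3, subunits of the single-strand binding protein. RPA1 was at 21.0 and 11.6 FPKM, with a ratio of 0.549 (0.514 to 0.587), and RPA3 at 12.8 and 8.04 FPKM, with a ratio of 0.629 (0.518 to 0.763). The FPKM ratio adds subunits of polymerase delta, POLD3 at 0.642 (0.564 to 0.730), POLD1 at 0.644 (0.562 to 0.737) and POLD4 at 0.664 (0.504 to 0.872).

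The highest ratio of that list was that of SSBP1, at 236 and 320 FPKM, with a ratio of 1.36 (1.32 to 1.40). SSBP1 is the mitochondrial single-strand binding protein, so it is not one of the nuclear proteins that follow MutS and MutL. PCNA, the sliding clamp, was named after its values were seen. It was at 203 FPKM in control cells and 244 FPKM after hnRNPK siRNA, with a ratio of 1.20 (1.17 to 1.24). The list median was −0.28, with 10 of 16 genes below the median of all genes. The clamp and the subunits of its loader and of the single-strand binding protein thus did not share a direction. At the deposited scaling, RFC1, RFC3, RFC5, RPA1 and RPA3 were lower and PCNA and RPA2 higher by more than counting error. Over all genes, the interval of the ratio lay below 1 for 48.5% and above 1 for 20.4% of 11350 genes. The median gene had a ratio of 0.904 on the FPKM + 1 scale, which the interval of RFC3 (0.761 to 0.907) includes. RPA2, also a subunit of the single-strand binding protein, had a ratio of 1.16 (1.09 to 1.24). For the loader subunits RFC2 and RFC4 the interval of the ratio included 1, and that of RFC4 (0.975 to 1.10) lay above the median gene. RPA2 and these other loader subunits were likewise named after their values were seen.

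Of 9 partners and modulators of the pathway 7 passed the filter and 0 of these were past 2-fold, against 4.33% of all genes. Their median was −0.20, beside −0.15 for all genes. The lowest ratio was that of FAN1, a nuclease that cuts near crosslinks, at 6.98 and 4.21 FPKM, with a ratio of 0.604 (0.543 to 0.671). The highest was that of SETD2, the methyltransferase that makes the histone mark to which MSH6 binds, at 16.2 and 20.1 FPKM, with a ratio of 1.24 (1.19 to 1.30). MSH5, a meiotic MutS relative that shares its locus with the read-through symbol MSH5-SAPCD1, was at 1.67 and 1.61 FPKM, and its partner MSH4 was below 1 FPKM in both libraries.

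The list median on the FPKM + 1 scale was −0.33 over 39 replication genes, −0.46 over 38 genes of homologous recombination and Fanconi repair, −0.20 over 21 of nucleotide excision repair and −0.17 over 20 of base excision repair. At least 2-fold lower on that scale were 2 of the 39 (POLA1 and CDC45), 1 of the 38 (EME1), 2 of the 21 (XPC and ERCC1) and 0 of the 20, against 3.55% of all genes. At least 2-fold higher were 0 genes of these lists, against 0.777% of all genes. By the FPKM ratio itself 3, 5, 3 and 1 genes of these lists were at least 2-fold lower, beside 7.17% of all genes. Again 0 were at least 2-fold higher, beside 1.56% of all genes. The genes added were POLA2 (0.468), BLM (0.498), RMI2 (0.474), FANCD2 (0.494), FANCE (0.497), ERCC4 (0.326) and OGG1 (0.457). OGG1, the glycosylase that removes oxidised guanine, had an interval of 0.342 to 0.604. Of these added genes only ERCC4 had an interval (0.271 to 0.392) wholly beyond the 2-fold limit, which the intervals of the others include. In base excision repair the lowest value on the FPKM + 1 scale was that of the scaffold XRCC1, whose FPKM ratio was 0.533 (0.449 to 0.632), and the highest on both scales that of the glycosylase TDG at 1.96 (1.80 to 2.15). No test of a difference between the lists was made.

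**Figure D4:**
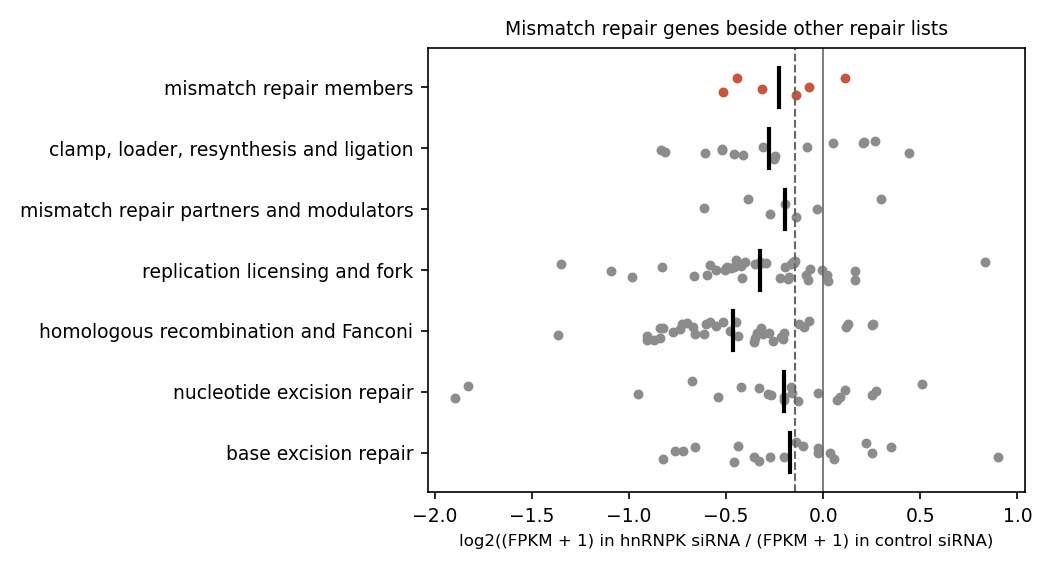
Log2 ratio of FPKM + 1 between hnRNPK siRNA and control siRNA for each gene (points, spread vertically to be seen) of the 6 mismatch repair genes (red) and of 6 other fixed lists (grey), with black bars at list medians, a dashed line at the median of all genes and a solid line at 0. The mismatch repair genes lie between −0.51 and 0.11. Below −1 lie POLA1 and CDC45 of replication, EME1 of homologous recombination, and XPC and ERCC1 of nucleotide excision repair.

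Among the 141 genes of these other lists, the gene nearest to each member in log2(FPKM + 1) over the 2 libraries was named as a description of level. For MSH6 it was PRIM1, the small subunit of primase, at 44.1 FPKM in control cells and 39.7 FPKM after hnRNPK siRNA. For EXO1 it was the licensing factor CDC6 at 34.0 and 32.1 FPKM, and for PMS1 the checkpoint adaptor CLSPN at 11.5 and 7.85 FPKM. For PMS2 it was POLE4, a subunit of polymerase epsilon, at 9.27 and 7.20 FPKM. For MLH3 it was ERCC8, of transcription-coupled repair, at 4.62 and 4.52 FPKM, and for MSH3 it was UVSSA, of the same process, at 1.28 and 0.893 FPKM, which unlike MSH3 was lower in hnRNPK siRNA.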

How the data were processed

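The authors deposited 1 table of FPKM values for 40205 gene symbols, with 1 column for each of the 2 libraries. Per the submitters' processing notes, Bowtie 0.12.2 and build hg19 were used. The gene annotation, how reads were counted and whether strand was used are not given in the sources. Columns were matched by the siRNA abbreviations, less directly for hnRNPK.

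Ratios between columns were fractions of whole reads (tolerance 5e-14) for 99.4% of 16571 genes above 0 in both libraries, which gave the smallest reads, lengths (tolerance 1e-05 bases) and totals that fit. True reads are these or a multiple. Exact Clopper-Pearson 95% intervals of the ratio were computed from them. They cover counting error only, and reads can be copies of 1 molecule. No count model was fitted.

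Log2 ratios used FPKM + 1, which understates changes of low genes, among 11454 genes with a mean of at least 1 FPKM, and calls used 2-fold. Named genes were the members, list members past 2-fold or otherwise the highest and lowest, neighbouring genes starting within 1 kb, PMS2 copies, the nearest gene by level and HNRNPK. Members and lists were chosen with earlier results of these data known. Other core mismatch repair genes were not analysed here, and some neighbouring genes and promoter windows are not reported here. Alternatives changed the pseudocount, scaling, filter, fold and list summary. GENCODE and RefSeq annotation is on GRCh38, not the build of the files, and was used for names, neighbours and reference sequences. Python 3.11.15 and scipy 1.17.1 were used.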

Additional observations from a re-analysis of the deposited data

How the results depend on the processing

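The count of mismatch repair genes past the fold, 0 in each direction, was the same under every pseudocount, scaling, filter and fold tried. After centring on the median of all genes the log2 ratios became 0.076 for MLH3, −0.30 for PMS1, −0.37 for PMS2 and −0.17 for EXO1. With the trimmed mean of log2 ratios set to 0 they were 0.075, −0.30, −0.37 and −0.17, and with equal 75th percentiles they were 0.054 for MLH3, −0.31 for PMS1 and −0.17 for EXO1. With a pseudocount of 5 FPKM PMS1 was at −0.32 and PMS2 at −0.36. The median of the 6 genes was −0.081 after centring, −0.081 with equal 75th percentiles and −0.082 with the trimmed mean, and −0.38 at a mean of at least 5 FPKM, which leaves out MSH3 and MLH3. The median of the clamp and resynthesis list was −0.13, −0.14 and −0.13 under the same 3 scalings, of replication genes −0.18, −0.19 and −0.18, and of nucleotide excision repair −0.057, −0.066 and −0.058, with a mean of −0.32. That of the partners was −0.050 after centring, −0.051 with the trimmed mean and −0.33 at a mean of at least 5 FPKM, and that of homologous recombination −0.26 with a pseudocount of 5 FPKM. Over all genes, 89 were higher and 407 lower by at least 2-fold. A pseudocount of 0.1 FPKM changed this to 162 higher and 754 lower, a pseudocount of 5 FPKM to 24 and 85, and centring to 142 and 241. The counts were 141 and 243 with the trimmed mean, 139 and 281 with equal 75th percentiles, 50 and 258 at a mean of at least 5 FPKM, 420 and 1682 at 1.5-fold, 10 and 39 at 3-fold, and 179 and 821 by the FPKM ratio with nothing added, an alternative chosen after the data had been seen. The change of value with scaling follows from the shift that each scaling applies to all genes. The multiple of reads for MSH6 and EXO1 was chosen after the data had been seen. Depth limits MSH3 most, with 118 and 152 reads. No paired analysis was possible because each group has 1 library.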
